A study of Mus musculus with 3 samples.

Results

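The interferon regulatory factors examined here are 8 genes, Irf1, Irf2, Irf3, Irf4, Irf5, Irf7, Irf8 and Irf9, chosen by their mouse symbols from a table of 54331 Ensembl features, and all 8 had a mean value of at least 10 normalized counts and were tested. The cells were RAW 264.7, an established mouse macrophage line (labelled BALB/c and male) in which every group had been given lipopolysaccharide (LPS, the bacterial ligand of the receptor TLR4) at 100 ng/mL for 5 h. The series asked how GIV, also called Girdin, a scaffold protein and G-protein modulator encoded by Ccdc88a, bears on TLR4 responses. One group was a single library, titled shC and of wild-type genotype, which served as the control shRNA. The other group was 2 libraries of GIV-depleted genotype, each made with a different shRNA and titled sh1 and sh2. They are called the sh1- and sh2-labelled libraries below, or together the sh-labelled libraries. No library without LPS was analysed here, so how far LPS itself moved any of these genes cannot be read from the values.

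Members of the family share an N-terminal DNA-binding domain with a repeat of conserved tryptophans, and it recognises GAAA-type sequences in interferon-stimulated response elements. IRF3 and IRF7 are kept in the cytoplasm until kinases downstream of TLR4 and nucleic-acid sensors phosphorylate them, after which they activate the gene for interferon beta. IRF9 is the DNA-binding subunit of ISGF3, the complex that carries the signal of type I interferon to its target genes. IRF1 and IRF2 act at overlapping sites, IRF1 as an activator and IRF2 mostly as a repressor, IRF5 drives inflammatory cytokine genes, and IRF4 and IRF8 bind poorly alone and need partners such as PU.1 or BATF. Much of this control acts on the proteins, by phosphorylation and nuclear entry, which RNA values do not measure.

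The target of the shRNAs was read first. Ccdc88a stood at 2580 normalized counts in the control, against 1734 in the sh1-labelled and 2561 in the sh2-labelled library. The log2 differences from the control were -0.57 and -0.01. The targeted mRNA was thus below the control by less than 1.5-fold in the sh1-labelled library and close to it in the sh2-labelled library. With 1 library each this has no test. The members are therefore given below by library as well as for the pair. Library totals ran from 47349097 to 49756670 normalized counts, which stand for very roughly 44761308 to 52709944 reads. Transcripts of the mitochondrial genome took 1.43% of the total in the control against 0.995% and 1.14% in the sh1- and sh2-labelled libraries, so the control had the highest share. The control has no replicate, and the labels do not say whether the 3 libraries were separate cultures. The p-values therefore measure only the spread between the sh-labelled libraries, pooled in part over all features.

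Irf7 was by far the most abundant member. Levels of different genes are set side by side only as normalized counts per kilobase of each gene's longest annotated transcript. On that scale Irf7 had a level of 26215 in the control, 22906 in the sh1-labelled library and 19181 in the sh2-labelled library. That placed it 119th, 130th and 149th among 11611 protein-coding genes with a mean of at least 10 normalized counts. Irf5 came next, with per-kilobase levels of 5341, 4748 and 4056 in the same order of libraries. Irf1 (2645, 1837 and 1740), Irf8 (2014, 2615 and 2034) and Irf9 (1836, 1953 and 1594) formed a middle group. Irf2 (1242, 1064 and 1035) and Irf3 (1192, 847 and 1015) lay below it, and Irf4 (18.1, 62.0 and 44.9) was lowest in every library.

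Some neighbours in this order were not separated. The range of Irf1 over the 3 libraries overlapped those of Irf8 and Irf9, and the range of Irf2 overlapped that of Irf3. Irf1 stood above Irf8 in the control and below it in both sh-labelled libraries. The ratio of Irf8 to Irf1, per kilobase, was 0.762 in the control, 1.42 in the sh1-labelled library and 1.17 in the sh2-labelled library. That crossing was also present when the longest coding transcript was used for length (0.928, 1.73 and 1.42) and when all exons were used (0.697, 1.30 and 1.07). With all exons as the length, Irf9 stood above Irf8 in the control (1319 against 991) and Irf3 above Irf2 (703 against 666), so the order within these neighbours rests on the length used. Irf7 took 64.7% of the summed per-kilobase level of the 8 members in the control, 63.6% in the sh1-labelled library and 62.5% in the sh2-labelled library. The share of Irf4 was 0.0446%, 0.172% and 0.146%.

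**Figure D1:**
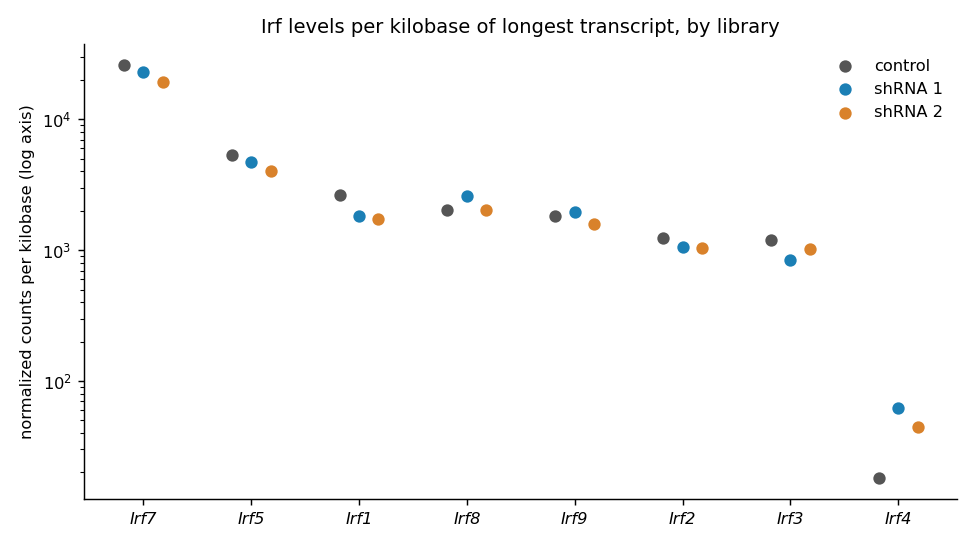
Level of each Irf gene in normalized counts per kilobase of its longest transcript (log axis), with 1 point for each of the 3 libraries and genes ordered by the control. Irf7 stands above all others in every library, between 19181 and 26215, and Irf4 below all others, between 18.1 and 62.0.

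Irf4 and Irf1 were the members farthest from the control, in opposite directions. Irf4 was at least 2-fold higher in both sh-labelled libraries, as 2.31% of all features were, and Irf1 differed by -30.6% and -34.2%. Of the other 6 members, Irf2, Irf3, Irf5 and Irf7 were lower than the control in both libraries by less than 1.5-fold, Irf8 was higher in both, and Irf9 lay above the control in one and below it in the other. No member passed an adjusted p of 0.05 in limma's test over the 13877 features tested. In that test 0 features passed (0%), and 963 (6.94%) had an unadjusted p under 0.05, among them 2 of the 8 members, Irf1 and Irf4. Each feature has 1 residual degree of freedom of its own, which comes from the sh-labelled pair. Limma draws that spread towards a trend fitted over all features, so the standard errors and p-values rest partly on other features. The single control is taken to vary likewise. Differences below are therefore given by their values and standard errors, on the log2(normalized count + 1) scale, as the sh-labelled pair minus the control.

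**Figure D2:**
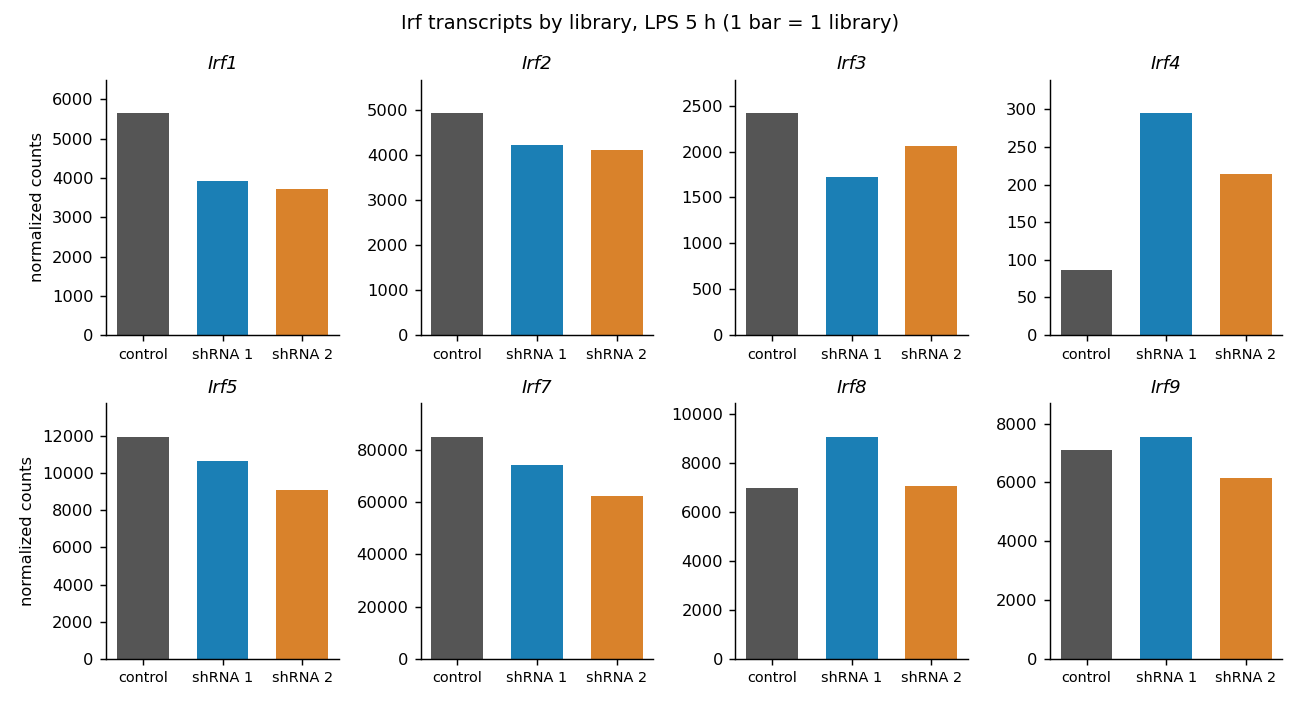
Values of the 8 Irf genes (normalized counts) in the control library, the sh1- and sh2-labelled libraries, 1 bar per library, each panel with its own axis from 0. Irf4 is higher in both shRNA libraries (295 and 214 against 86.1) and Irf1 is lower in both (3925 and 3718 against 5652).

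Upstream sequences are shown for the members farthest from the control, Irf1 and Irf4, and for Irf2 and Irf8, whose windows held further matches. Each is the 250 bases before the RefSeq start of the gene (GRCm38.p6), written 5′ to 3′, with letters that match a searched motif in capitals.
Irf1 (chr11:53769764-53770013, plus strand): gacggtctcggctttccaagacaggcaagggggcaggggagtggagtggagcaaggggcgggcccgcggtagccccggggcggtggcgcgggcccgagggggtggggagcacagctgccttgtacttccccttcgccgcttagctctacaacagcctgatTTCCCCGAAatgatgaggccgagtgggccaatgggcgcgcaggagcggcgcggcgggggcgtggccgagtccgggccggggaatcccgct
Irf2 (chr8:46739495-46739744, plus strand): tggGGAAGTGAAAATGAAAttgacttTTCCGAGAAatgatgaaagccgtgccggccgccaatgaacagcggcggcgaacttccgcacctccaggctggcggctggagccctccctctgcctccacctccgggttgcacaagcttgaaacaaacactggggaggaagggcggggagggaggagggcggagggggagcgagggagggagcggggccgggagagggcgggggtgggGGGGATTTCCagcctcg
Irf8 (chr8:120736108-120736357, plus strand): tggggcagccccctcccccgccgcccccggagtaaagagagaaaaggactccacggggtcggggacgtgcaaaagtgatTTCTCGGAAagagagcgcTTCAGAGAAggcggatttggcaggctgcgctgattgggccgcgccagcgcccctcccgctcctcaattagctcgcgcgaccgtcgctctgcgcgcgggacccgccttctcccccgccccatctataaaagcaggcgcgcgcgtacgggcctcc
Irf4 (chr13:30748983-30749232, plus strand): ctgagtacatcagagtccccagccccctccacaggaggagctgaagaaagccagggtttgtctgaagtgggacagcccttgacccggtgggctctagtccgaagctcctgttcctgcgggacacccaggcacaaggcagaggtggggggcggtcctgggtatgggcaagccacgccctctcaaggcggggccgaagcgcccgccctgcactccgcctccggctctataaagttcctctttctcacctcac
The motifs searched, on both strands, were the core of the interferon-stimulated response element (GAAA, any 2 bases, GAAA), the STAT site called GAS (TTCNNNGAA, which reads the same on both strands), an NF-kB site (GGG, any 2 bases, TTTCC), the ETS-IRF composite site used by PU.1 with IRF4 or IRF8 (GGAA, any 2 bases, GAAA), and AP-1 (TGANTCA, also the same on both strands). The windows searched ran from 250 bases before to 50 after each start, and all 8 members had at least 1 window. Irf1, Irf8 and Irf9 had a further window, at another start, which held no match.

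Irf1 held 1 GAS match, which begins at -90 counted from its start (-1 is the base just before the start), and Irf8 held 2, beginning at -171 and -153. Irf2 held 4 matches. Its ETS-IRF composite match begins at -247 and overlaps the response-element match that begins at -241. Its GAS match begins at -224 and its NF-kB match at -17. No searched motif occurred in the windows of Irf3, Irf4, Irf5, Irf7 or Irf9, which says only that these letters are not in these windows. The same holds for each motif without a match in Irf1, Irf2 or Irf8. Other forms of each site were not searched, so the lack of an NF-kB match in Irf1 does not show that it has no such site. Over 32851 windows of all genes, 3.44% held the response-element core, 8.30% GAS, 1.63% the NF-kB motif, 2.72% the ETS-IRF composite and 7.81% AP-1. A match is a run of letters and does not show that a factor binds there.

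Irf1 (ENSMUSG00000018899.16, chromosome 11, 53770014 to 53778374, plus strand, GRCm38) encodes an activator induced by interferons and by NF-kB. It stood at 5652 normalized counts in the control, against 3925 in the sh1-labelled and 3718 in the sh2-labelled library. The shRNA libraries lay close together and both were below the control. The log2 differences were -0.53 and -0.60, with a mean of -0.56 (SE 0.13, unadjusted p = 0.011, adjusted p = 0.52 in limma). Of all features tested, 6.52% had a lower mean difference. Irf2 (ENSMUSG00000031627.9, chromosome 8, 46739732 to 46847458, plus strand), the counterpart that competes for the same sites, stood at 4926 normalized counts in the control, against 4219 in the sh1-labelled and 4104 in the sh2-labelled library. It too was lower in both (-14.4% and -16.7%), with a mean log2 difference of -0.24 (SE 0.12, adjusted p = 0.75 in limma). The ratio of Irf1 to Irf2, per kilobase, was 2.13 in the control, 1.73 in the sh1-labelled library and 1.68 in the sh2-labelled library.

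Irf3 (ENSMUSG00000003184.15, chromosome 7, 44997648 to 45002848, plus strand) encodes the factor that TBK1 phosphorylates after TLR4 signals through TRIF. It stood at 2420 normalized counts in the control, against 1720 in the sh1-labelled and 2062 in the sh2-labelled library. Both shRNA libraries were below the control, and the sh1-labelled library was the lower of them. The log2 differences were -0.49 and -0.23, with a mean of -0.36 (SE 0.18, adjusted p = 0.75 in limma). Irf3 overlaps Bcl2l12 on the opposite strand over 1065 bases, a gene at 203, 130 and 170 normalized counts in the same libraries. The library kit keeps strand, but no source used here says whether the counting used it.

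Irf7 (ENSMUSG00000025498.15, chromosome 7, 141262706 to 141266481, minus strand) encodes the factor that amplifies type I interferon production and is itself an interferon-induced gene. It stood at 84936 normalized counts in the control, against 74214 in the sh1-labelled and 62145 in the sh2-labelled library. The libraries stepped down in that order, at -12.6% and -26.8% from the control. The mean log2 difference was -0.32 (SE 0.18, adjusted p = 0.77 in limma), and quantile normalization reduced it to -0.19. The sh2-labelled library, with Ccdc88a close to the control, had the lowest Irf7. Any link between Irf7 and Ccdc88a was not tested.

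Irf5 (ENSMUSG00000029771.12, chromosome 6, 29526625 to 29541871, plus strand), a factor for inflammatory cytokine genes that acts downstream of MyD88, followed the same order as Irf7. Its normalized counts were 11970 in the control, 10640 in the sh1-labelled library and 9090 in the sh2-labelled library. These were -11.1% and -24.1% from the control, with a mean log2 difference of -0.28 (SE 0.15, adjusted p = 0.77 in limma). With a trend on GC content and transcript length removed from all features, the mean difference of Irf5 was -0.20. The same setting took Irf2 from -0.24 to -0.34 and Irf9 from -0.06 to -0.12, while the differences of the other members became smaller in size. Its gene overlaps Tnpo3 on the opposite strand over 1045 bases, and Tnpo3 was nearly level over the libraries, at 7511, 7821 and 7739 normalized counts.

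Irf4 (ENSMUSG00000021356.10, chromosome 13, 30749226 to 30766976, plus strand) encodes a factor known from B cells, plasma cells, dendritic cells and alternatively activated macrophages. It stood at 86.1 normalized counts in the control, against 295 in the sh1-labelled and 214 in the sh2-labelled library. The control thus held the lowest value, and the sh1-labelled library, which had less Ccdc88a, held the highest. Any link between Irf4 and Ccdc88a was not tested. The fold over the control was 3.43 in the sh1-labelled library and 2.48 in the sh2-labelled library. These values stand for roughly 92, 266 and 221 reads, which gives exact 95% counting intervals of 2.71 to 4.42 and of 1.95 to 3.21 for the folds. The intervals cover counting error only, rest on rough read numbers and leave out any difference between cultures. The mean log2 difference was 1.53 (SE 0.33, unadjusted p = 0.010, adjusted p = 0.51 in limma), and 1.90% of the features tested had a higher one.

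Irf8 (ENSMUSG00000041515.10, chromosome 8, 120736358 to 120756694, plus strand), the relative of Irf4 that sets monocyte and macrophage identity, stood at 6988 normalized counts in the control, against 9071 in the sh1-labelled and 7054 in the sh2-labelled library. The sh1-labelled library was 29.8% above the control, while the sh2-labelled library was 0.951% above it. The mean log2 difference was 0.19 (SE 0.20, adjusted p = 0.85 in limma). In the sh2-labelled library the log2 difference of 0.01 turned to -0.04 once the trend on GC content and length was removed. Gm20388, a gene model on the same strand, overlaps the whole of Irf8 (762, 834 and 805 normalized counts), so how reads were split between these genes is uncertain. The ratio of Irf4 to Irf8, per kilobase, was 0.00898 in the control, 0.0237 in the sh1-labelled library and 0.0221 in the sh2-labelled library.

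Irf9 (ENSMUSG00000002325.15, chromosome 14, 55603571 to 55610030, plus strand), the subunit through which ISGF3 binds DNA, stood at 7105 normalized counts in the control, against 7555 in the sh1-labelled and 6167 in the sh2-labelled library. The control lay between the other libraries. The mean log2 difference was -0.06 (SE 0.17, adjusted p = 0.96 in limma), the smallest of the 8 members. Rnf31, on the same strand, shares 123 bases with it and stood at 2953, 1973 and 2384 normalized counts.

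Counted over the family, 5 of 8 members were lower than the control in both sh-labelled libraries, where 35.2% of all features tested were. Those 5 were Irf1, Irf2, Irf3, Irf5 and Irf7. Another 2, Irf4 and Irf8, were higher in both, where 34.9% of all features were. The median mean difference of the members was -0.26 on the log2 scale, against -0.0015 for all features. By a rule of at least 1.5-fold, Irf4 was the 1 member higher in the sh1-labelled library, where 8.83% of features were. No member was lower there, where 7.85% were. In the sh2-labelled library, Irf4 was again the 1 member higher (9.99% of features) and Irf1 the 1 member lower (7.19%). Both libraries are set against the same control, so a shared direction is partly fixed by that library.

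**Figure D3:**
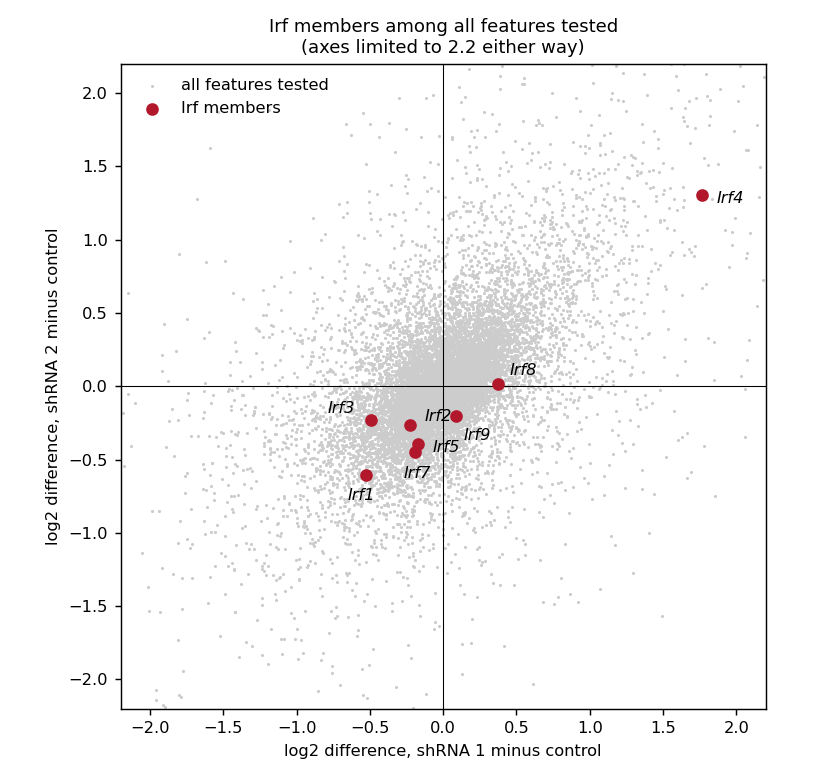
Log2 difference from the control in the sh1-labelled library (horizontal axis) and in the sh2-labelled library (vertical axis) for all 13877 features tested (grey) and the 8 Irf genes (red). Irf4 lies at 1.77 and 1.30, Irf1 at -0.53 and -0.60, and the other 6 genes lie nearer to 0. Both axes share 1 control library and stop at 2.2 either way.

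The sh1- and sh2-labelled libraries differed from each other by less than 1.5-fold for all 8 members, whereas 8.96% of all features were at least 1.5-fold higher in the sh2-labelled library and 6.54% at least 1.5-fold lower. With 1 library per shRNA this has no test. Irf4 differed most, with a log2 difference of -0.46 (shRNA 2 minus shRNA 1). Irf8 (-0.36), Irf9 (-0.29), Irf7 (-0.26) and Irf5 (-0.23) were also lower in the sh2-labelled library. Irf1 (-0.08) and Irf2 (-0.04) were nearly level, and Irf3 was the 1 member higher in it (0.26).

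Genes around the family were taken from 9 lists that hold 118 different genes, of which 107 were tested. Some genes stand in several lists, such as Il12b in those for IRF1, IRF5 and IRF8. In both sh-labelled libraries 57 of the 107 were lower and 26 higher, against 35.2% and 34.9% of all features, with a median mean difference of -0.14. None passed an adjusted p of 0.05 in limma, and 10 lower and 11 higher genes had an unadjusted p under 0.05, which 6.94% of all features had in either direction. The lists were chosen with earlier results of these data known, so these counts are a description. In the sh1-labelled library alone 46 genes were higher than the control, against the 26 higher in both.

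The genes that activate the family at its source showed no common direction. Of 16 upstream kinases and adaptors 6 were lower in both sh-labelled libraries and 5 higher, where 35.2% and 34.9% of all features were. The median was 0.00024. Tbk1, the kinase of IRF3 and IRF7, stood at 6148 normalized counts in the control, against 6890 in the sh1-labelled and 6573 in the sh2-labelled library, the order of libraries used in the rest of the pathway genes. Ticam1, which encodes the adaptor TRIF, had 3191, 3435 and 2946. Tmem173, which encodes the adaptor STING, had the largest mean difference of this list, with 1743, 2328 and 2327 (0.42, SE 0.14, adjusted p = 0.69 in limma). Traf3, an adaptor needed for interferon induction, had 1506, 2102 and 1867. Ikbke, a kinase related to TBK1, had 10421, 8296 and 9468, and Ticam2, the bridging adaptor TRAM, had 318, 303 and 483.

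Interferon beta itself was higher than the control while most genes downstream of it were lower. Ifnb1, the gene that IRF3 and IRF7 activate, had 620, 1338 and 1385 normalized counts, a mean difference of 1.13 (SE 0.16, adjusted p = 0.28 in limma). Of 8 tested interferon and receptor genes 4 were lower in both sh-labelled libraries and 2 higher, with a median of -0.09, or -0.15 with the trend on GC content and length removed. Jak1, a receptor-bound kinase, had 8396, 10732 and 10398, Tyk2 had 5578, 5108 and 4362, and the receptor subunit Ifnar2 had 2828, 2380 and 2815. Stat2, which encodes a partner of IRF9 in ISGF3, was lower in both libraries, at 28794, 26026 and 21427 normalized counts. Of the 20 ISGF3 targets 16 were lower in both and 0 higher in both, where 35.2% and 34.9% of all features were. Their medians were -0.10 in the sh1-labelled library and -0.38 in the sh2-labelled library. Cxcl10, a chemokine, had 113956, 87117 and 82837, and Rsad2, which encodes the antiviral enzyme viperin, had 290505, 225174 and 226635. Mx1 and Mx2, antiviral GTPases, had 26683 and 17145 in the control, 24347 and 14440 in the sh1-labelled library, and 18041 and 12990 in the sh2-labelled library.

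Genes known to be bound or induced by IRF1 were mostly below the control, as Irf1 was. Whether these genes depend on Irf1 here was not tested. Their medians were -0.10 in the sh1-labelled library and -0.37 in the sh2-labelled library, near those of the ISGF3 targets (-0.10 and -0.38). Irf1 itself was at -0.53 and -0.60. Of 17 tested, 11 were lower in both sh-labelled libraries and 2 higher, with a median of -0.25, and 5 of the lower ones had an unadjusted p under 0.05. Over all features 35.2% were lower in both, 34.9% were higher in both and 6.94% had such a p in either direction. Tap1, a peptide transporter of antigen presentation, had 23768, 17564 and 14131 normalized counts, and Psmb8, a subunit of the immunoproteasome, had 12716, 9877 and 8200. Socs1, an inhibitor of cytokine receptors, had 514, 290 and 236. Il12b, the p40 subunit of interleukin 12, went the other way, with 1.87, 14.5 and 28.8, where the control value stands for about 2 reads.

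The list for IRF4 ran mostly above the control, as Irf4 did. Of its 6 tested genes 4 were higher in both sh-labelled libraries and 0 lower, where 34.9% and 35.2% of all features were. The median was 0.81. It was 0.55 when only features with a mean of at least 50 were kept and 0.36 with no filter on low values. Ccl17 and Ccl22, chemokines that attract T cells, stood at 105 and 9279 in the control, 270 and 26578 in the sh1-labelled library, and 204 and 14730 in the sh2-labelled library. Prdm1, which encodes the repressor BLIMP1, had 16.2, 28.7 and 33.6, and Zbtb46, a dendritic-cell factor, had 14.7, 17.5 and 34.9, both low values. Cd83 (14620, 16034 and 10858) and Kdm6b (3991, 4395 and 3644) were above the control in the sh1-labelled library and below it in the sh2-labelled library. The other 4 genes of that list, Mgl2, Retnla, Chil3 and Arg1, had too low a mean to be tested. Batf, whose AP-1 protein binds DNA together with IRF4, was close to absent from the control (0.932 normalized counts, or about 1 read) and stood at 339 and 578 in the sh-labelled libraries (adjusted p = 0.16 in limma). Batf3, a near relative of Batf, was listed at 0 in every library.

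Among the DNA-binding partners and cofactors 8 of 13 tested genes were lower in both sh-labelled libraries and 4 higher, with a median of -0.21. Of all features 35.2% were lower in both and 34.9% higher in both. Spi1, which encodes PU.1, had 14210, 12635 and 12232 normalized counts. Crebbp, the coactivator CBP, had 846, 2215 and 2214 (1.39, SE 0.14, adjusted p = 0.19 in limma). Irf2bp2 and Irf2bpl, corepressors of the IRF2-binding protein group, had 780 and 6165 in the control, 490 and 5102 in the sh1-labelled library, and 452 and 3964 in the sh2-labelled library. Of 13 genes listed for IRF8 with PU.1, 7 were lower in both and 4 higher in both, with a median of -0.23. Id2, an inhibitor of helix-loop-helix factors, had 293, 655 and 550. Klf4, a monocyte transcription factor, had 619, 374 and 388. Ptpn13, a phosphatase, had 18.7, 10.03 and 12.5.

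The cytokine genes listed for IRF5 were mostly above the control although Irf5 was below it. Of 8 tested, 6 were higher in both sh-labelled libraries and 1 lower, where 34.9% and 35.2% of all features were. The median was 0.69, or 0.39 with a mean of at least 50 required. Il12b, given above with its nearly absent control value, had the largest mean difference of this list. Il6 had 1957, 6114 and 8985 normalized counts, Il1b had 31161, 75964 and 52880, and Il23a had 10.4, 16.6 and 26.8. The gene lower in both was Il10, with 8907, 6047 and 5109, named here after its values were seen. Of 12 negative regulators 6 were lower in both sh-labelled libraries and 1 higher, with a median of -0.17. Rbck1, a ubiquitin ligase subunit, had 4754, 3782 and 3901, Trim21, a ubiquitin ligase that targets IRF proteins, had 4074, 3402 and 3281, and Usp18, which blocks the interferon receptor, had 59619, 57048 and 44612.

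**Figure D4:**
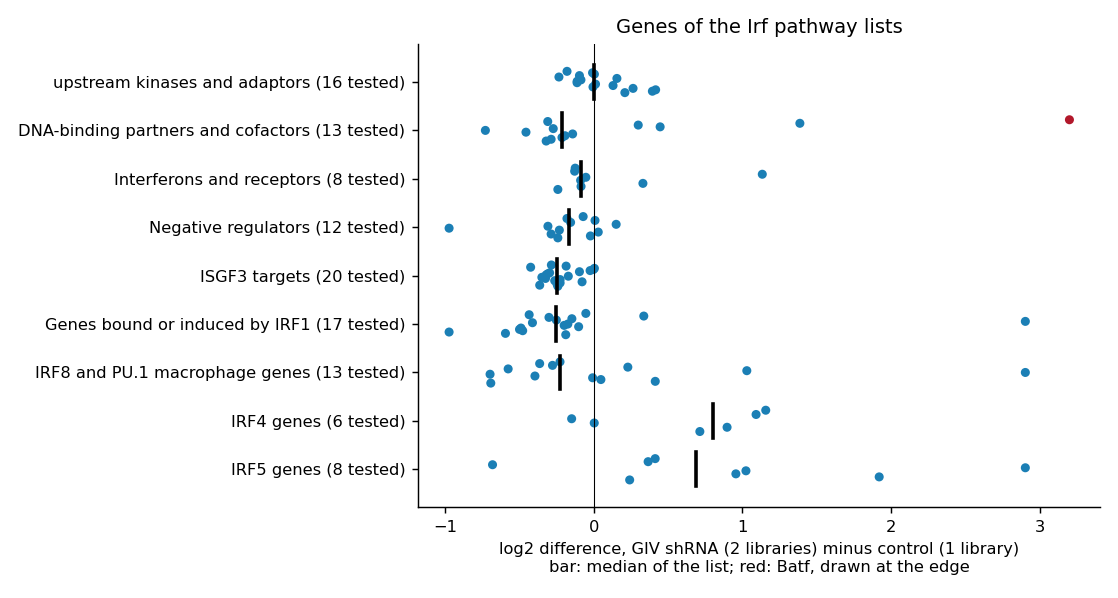
Mean log2 difference of each tested gene in 9 lists around the Irf family, with the list's median as a black bar. A gene has 1 point in each list that holds it. The median is 0.81 for the IRF4 list and 0.69 for the IRF5 list, and -0.24 for ISGF3 targets and -0.25 for the IRF1 list. Batf is drawn at the right edge in red.

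The genes whose 2 log2 differences lay nearest to those of a member were sought among 10381 other protein-coding genes above 0 in all 3 libraries with a mean of at least 50. Nearest to Irf4 were Mad2l1, a spindle checkpoint gene (972, 3044 and 2349 normalized counts, distance 0.12), Cish, an inhibitor of cytokine signalling (245, 762 and 575, distance 0.15), and Chmp1a, of the ESCRT machinery (1403, 4177 and 3394, distance 0.19). Nearest to Irf1 were Mxd4, a MAX partner (165, 114 and 109, distance 0.0066), Cd209c (236, 163 and 156, distance 0.0075) and Ninj1, a membrane rupture protein (2987, 2088 and 1975, distance 0.012). Likeness over 3 libraries is a weak measure.

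The labelled cell type was checked by its markers, since Irf4 and Irf8 are also high in lymphoid and dendritic cells. All 10 macrophage markers were tested, and 7 were lower in both sh-labelled libraries and 0 higher, where 35.2% and 34.9% of all features were. They summed to 455310 in the control, 345531 in the sh1-labelled library and 367656 in the sh2-labelled library. Much of that fall came from Lyz2 (199781, 121997 and 138145). Itgam, Cd14 and Adgre1 were above the control in one sh-labelled library and below it in the other. Of 10 dendritic-cell markers 5 were tested and 3 were listed at 0 in every library, Flt3 among them, with sums of 42181, 38122 and 32385, most of it from Bst2 (36855, 32716 and 27992), an interferon-induced gene in many cells. Tcf4 (4197, 4120 and 3271), Itgax (725, 970 and 764) and Xcr1 (383, 278 and 320) of that list were also present. Of 8 B-cell and plasma-cell markers 4 were tested, with sums of 2387, 1246 and 1335, most of it from Sdc1 (2102, 959 and 1041). Pax5 (138, 160 and 113) and Ebf1 (134, 113 and 148) were present too. Cd79a, a subunit of the B-cell receptor, had 1.87, 1.12 and 6.72. None of the 8 T-cell and NK-cell markers was tested (sums of 2.81, 2.45 and 11.3), and none of the 7 fibroblast markers (14.9, 13.4 and 13.5). The macrophage marker sum and the mitochondrial share were below the control in both sh-labelled libraries, as were Irf1, Irf2, Irf3, Irf5 and Irf7. The marker sum, the mitochondrial share and Irf3 were lowest in the sh1-labelled library. Irf1, Irf2, Irf5 and Irf7 were lowest in the sh2-labelled library. The part of the markers and of the mitochondrial share in the Irf values was not tested. In bulk RNA, fewer cells that make a transcript and less of it per cell cannot be told apart.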

How the data were processed

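Messenger RNA libraries were made from total RNA with a stranded kit, per the labels' protocols. The deposited signal is 1 column of normalized counts per library, made by the authors. The submitters' processing notes list Salmon, DESeq, DESeq2 and the build GRCm38 but give no version or role. Which annotation they used is not given in these sources. Between 82.9% and 83.6% of values under 20 times the commonest lowest value lay within 0.1 of a whole multiple of it, too few to recover reads, so no count model was fitted.

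Identifiers were matched without version to GENCODE M21 of GRCm38 (54097 of 54331 had a symbol). The 13877 features with a mean of at least 10 were put on the log2(value + 1) scale, which understates changes of low genes, and fitted with limma 3.58.1 in R 4.3.3 (mean-variance trend, two-sided, Benjamini-Hochberg adjustment over all features). The fit was also run on simulated data, in which both shRNA libraries had the same true differences and all features 1 dispersion. That run cannot vouch for the p-values given here. The p-values measure only the spread between the sh-labelled libraries, pooled in part over all features, which may be technical. Named were all members, Ccdc88a, 7 pathway genes, up to 4 genes per list with the largest differences and the nearest genes. The members and lists were chosen with earlier results of these data known. Promoter sequences are from RefSeq (GRCm38.p6). Proteins were not compared. Some genes that the rule names are left out.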

Additional observations from a re-analysis of the deposited data

How the results depend on the processing

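No paired analysis was possible because the groups share fewer than 2 replicate numbers. Library scaling, the pseudocount, the minimum mean, quantile normalization, a GC and length trend and the variance trend were varied, and each member kept the direction of its mean difference under all 9 of these alternatives without passing an adjusted p of 0.05 in limma. The number of features called, 0 as reported, became 1 with a mean of at least 50, 1 with equal totals and 31 after removing the trend on GC content and length, none of them a member. With that trend removed 1 member instead of 2 was higher in both libraries, since Irf8 in the sh2-labelled library went from 0.01 to -0.04. Leaving out the sh1- or the sh2-labelled library gave -0.60 to -0.53 for Irf1 and 1.30 to 1.77 for Irf4. The direction of Irf9 turned with the library kept, from -0.20 to 0.09, which has no test. Pathway genes above the control numbered 30 to 46 and those below it 61 to 77 when 1 library was left out. The share of Irf7 in the family's summed level in the control, 64.7% per kilobase of the longest transcript, was 70.9% with all exons, 68.5% without division by length, and 70.3% with the longest coding transcript, a choice made after seeing the data. A value near 1 stands for about 1 read, so depth limits Batf, Il12b and the untested genes.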
